A study of Mus musculus with 32 samples.

Results

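Mouse E14 embryonic stem cells at passages 12 and 14 in medium with T0901317, an agonist of the liver X receptors (LXR), were compared with cells of the same passages grown without it. The comparison took 8 of the 32 libraries of the series, chosen by their passage and treatment labels alone, with 4 libraries in each arm and 2 in each of 4 groups. E14 is a wild-type mouse line with a Y chromosome. All cells grew on gelatin in serum medium with LIF at 1000 U/mL, the GSK3 inhibitor CHIR99021 at 3 µM and the MEK inhibitor PD0325901 at 1 µM, in both arms. The control arm (ESC) had nothing further by the labels, which name no vehicle, and the treated arm (NrESC) had T0901317 at 10 µM. The data come from 1 cell line and 1 dose of 1 compound. Whether the paired libraries of a group are separate cultures is not stated in the labels, and p-values here therefore measure only the spread between these samples, which may be technical. Polyadenylated RNA was sequenced, and the whole series sampled both arms at 8 passages from 0 to 14.

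LXR alpha (Nr1h3) and LXR beta (Nr1h2) are nuclear receptors that sense oxysterols. They bind DNA as partners of the retinoid X receptors, at elements made of a pair of 6-base motifs spaced by 4 bases. In liver and macrophages their targets export cholesterol, block its uptake and drive fatty acid synthesis through SREBP-1c, a product of Srebf1. Stem cells kept with LIF and both inhibitors are held in the naive pluripotent state, and a small share of such cells at any time transcribes genes of the 2-cell embryo.

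Promoter sequences are shown first because the genes with the largest rise include known direct LXR targets. An element of the form GGGTTANNNNCGGTCA, searched on both strands, lay in 3 of 32851 RefSeq promoter windows (0.00913%; GRCm38.p6; 250 bases before to 50 after the annotated start). These 3 windows belonged to Abca1, Srebf1 and Fasn. This form was searched after the exact repeat described below, and its letters were set by hand. Its share of windows is therefore no measure of specificity for LXR targets. The 250 bases upstream of each start are printed 5′ to 3′ on the gene's strand, with the element, which reads on the other strand, in capitals.
Abca1: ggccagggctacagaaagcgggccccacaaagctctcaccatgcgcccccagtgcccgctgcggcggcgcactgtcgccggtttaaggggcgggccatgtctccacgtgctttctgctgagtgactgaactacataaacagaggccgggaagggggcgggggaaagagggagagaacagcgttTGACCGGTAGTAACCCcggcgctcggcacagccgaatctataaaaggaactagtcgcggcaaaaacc
Srebf1: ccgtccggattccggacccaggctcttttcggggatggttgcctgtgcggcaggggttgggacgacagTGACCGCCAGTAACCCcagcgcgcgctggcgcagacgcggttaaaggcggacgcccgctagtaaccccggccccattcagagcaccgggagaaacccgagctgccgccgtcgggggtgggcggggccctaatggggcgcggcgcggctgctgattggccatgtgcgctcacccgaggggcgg
Fasn: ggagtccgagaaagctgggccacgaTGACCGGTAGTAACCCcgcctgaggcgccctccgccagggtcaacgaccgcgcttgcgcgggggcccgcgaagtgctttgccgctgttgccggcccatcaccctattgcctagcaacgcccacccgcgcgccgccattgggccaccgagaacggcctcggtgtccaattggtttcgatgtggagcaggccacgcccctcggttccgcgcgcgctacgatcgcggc
The stretches lie at chr4:53159896-53160145, chr11:60210472-60210721 and chr11:120824548-120824797, all on the minus strand. The element began 67 bases before the start of Abca1, 182 bases before that of Srebf1 and 225 bases before that of Fasn. The Srebf1 window is 1 of several that RefSeq gives for this gene. The form searched first, an exact repeat of AGGTCA spaced by 4 bases, lay in 5 windows (0.0152%) and in none of the 16 LXR target genes with a window. With up to 1 mismatch in each repeat it lay in 1.75% of windows and again in none of those 16. A match is a description of these letters, not a bound site.

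In the late comparison 3858 of the 14497 genes tested were higher in NrESC (26.6%) and 3823 were lower (26.4%). A gene was called at an adjusted p below 0.05 in edgeR's quasi-likelihood test with passage as a term. Fold changes are log2 ratios of NrESC over ESC, with the model's standard error (SE), and levels are CPM, that is, counts brought to a common library total and scaled by the trimmed mean of M-values. The counts of each gene list at passages 12 and 14 stand against these shares, 26.6% higher and 26.4% lower. Most of the differences were small. The median size among called genes was 0.26 on the log2 scale, and 3834 of the 7681 calls were smaller than 1.2-fold. A 2-fold change or more was reached by 162 genes that rose and by 462 that fell, and 275 of these 462 had a mean log2 CPM below 0 and 60 more one between 0 and 1. In parentheses after a gene, the first value is its log2 fold change. Levels written with ± are the mean and SD of the 4 libraries of an arm (n = 4).

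Total counts ran from 24989652 to 31302950 in the ESC arm and from 37500062 to 50463489 in the NrESC arm, so the treated arm was the deeper one in every pair. Depth therefore moved with the arm. With all libraries thinned to 24989652 counts, 3643 genes were higher and 3546 lower. The first principal component of log2 CPM held 54.7% of the variance and separated the arms. Ribosomal protein transcripts took 6.94% to 7.16% of counts in ESC and 7.03% to 7.33% in NrESC, and histone transcripts 0.00211% to 0.00252% and 0.00250% to 0.00381%. The part of depth and of these shares in the gene results was otherwise not tested. Pluripotency factors were high in all libraries, with Pou5f1 at 1261 to 1311 CPM in ESC and 1422 to 1504 in NrESC. In bulk RNA, fewer cells of a type and less RNA per cell cannot be told apart.

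The sterol exporters Abcg1 and Abca1 had the highest fold changes among the named genes. Abcg1, which passes cholesterol to high-density lipoprotein, stood at 7.33 and 7.78 CPM in the ESC libraries of passage 12 and at 6.48 and 7.395 at passage 14. In NrESC it stood at 123 and 124 CPM at passage 12 and at 117 and 118 at passage 14, so that all treated libraries lay far above all controls. Its log2 fold change was 4.06 (SE 0.042, adjusted p = 4.55e-22). Abca1, which loads cholesterol onto apolipoprotein A-I, went from 50.03 and 53.4 CPM at passage 12 and 45.6 and 41.5 at passage 14 in ESC to 441 and 459.9 and then 440.1 and 439 in NrESC. Its groups did not overlap either, and its log2 fold change was 3.23 (SE 0.04, adjusted p = 3.3e-21). Abcg5 and Abcg8, the sterol exporters of liver and gut, had arm means at or below 0.0345 CPM. Corrected for length, Abca1 was the higher of the pair in both arms, at 8.05 TPM in ESC and 74.8 in NrESC against 2.203 and 36.4 for Abcg1.

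**Figure D1:**
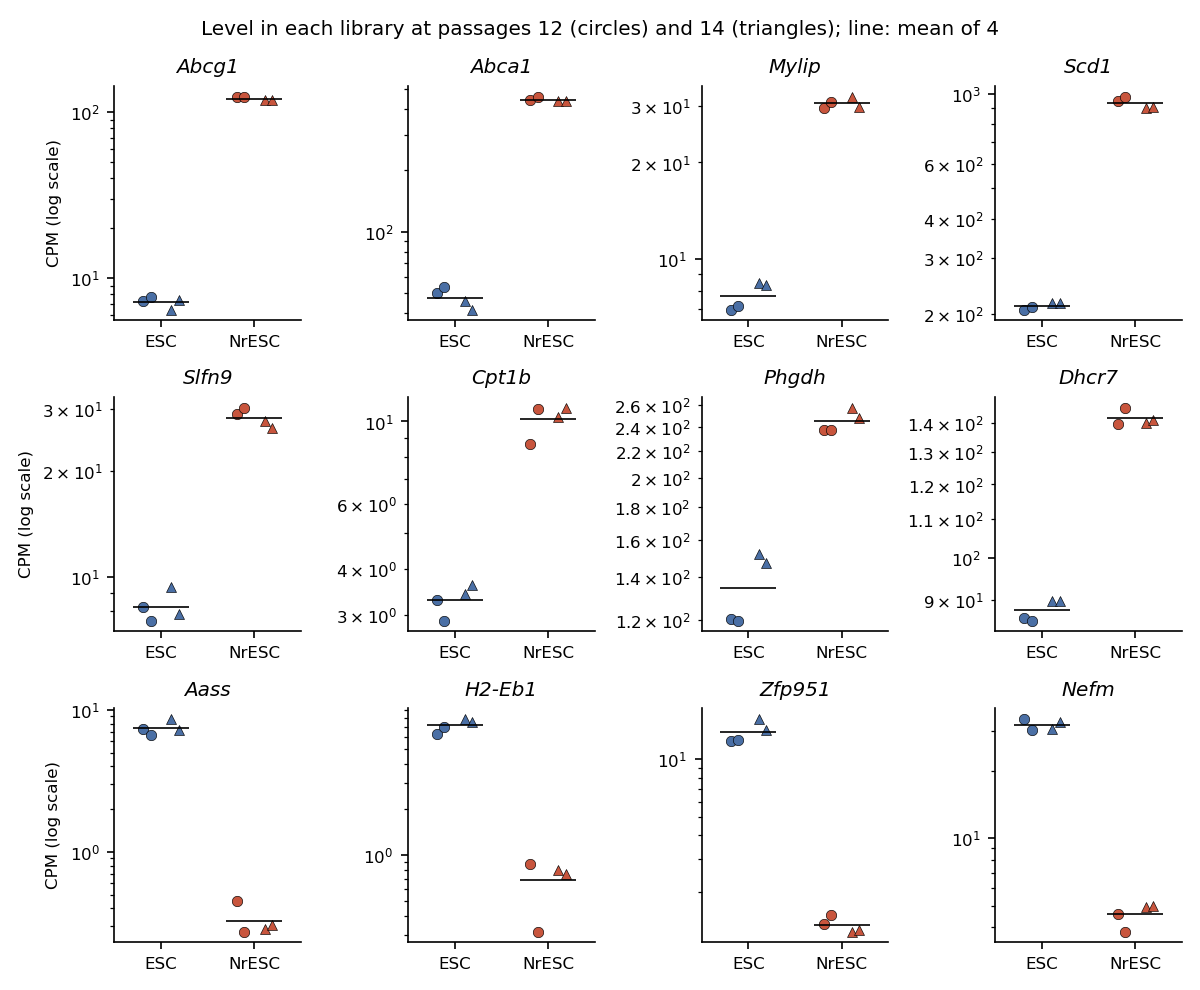
CPM (log axis, own range in each panel) of 12 genes in the 8 late libraries, by arm, with passage 12 as circles, passage 14 as triangles and the mean of the 4 libraries of an arm as a line. In the upper 8 panels every NrESC library lies above every ESC library, as for Mylip at 29.5 to 32.02 against 6.98 to 8.44 CPM, and in the lower 4 every NrESC library lies below.

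Of the 20 LXR targets tested, Abcg1 and Abca1 included, 13 rose and 2 fell, with a median of 0.57 against 0.0040 over all genes tested. Mylip, a ubiquitin ligase that limits cholesterol uptake, stood at 6.98 to 8.44 CPM in ESC and 29.5 to 32.02 in NrESC and rose by 1.99 (SE 0.057). Lpcat3, which builds polyunsaturated phospholipids, rose by 1.07 (SE 0.034). Apoe, Pltp and Arl4c rose by 0.59, 0.56 and 0.53. The targets that fell were Mlxipl (-0.55, SE 0.064), which encodes the carbohydrate-responsive factor ChREBP, and Ttc39b (-0.23, SE 0.025). Lpl, Apoc1, Eepd1, Smpdl3a and Nr1h3 did not pass. Summed over the list, levels ran at 2958 to 3091 CPM in ESC and 7489.8 to 7759.8 in NrESC.

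The receptors themselves were not called. Nr1h2 stood at 56.5 to 60.6 CPM in ESC and 54.3 to 59.4 in NrESC (-0.023, SE 0.036, adjusted p = 0.618), and the groups overlapped. Nr1h3 was near 1 CPM in both arms (0.25, SE 0.26, adjusted p = 0.453). Of their partners, Rxra fell from 43.9 ± 2.58 to 34.5 ± 0.536 CPM (-0.35, SE 0.038) and Rxrb was not called (0.018). Among 27 nuclear receptors tested 7 rose and 7 fell (median -0.095), near the shares of 26.6% and 26.4% over all genes tested. The retinoic acid receptors moved apart: Rara rose by 0.75 (SE 0.033), while Rarg (-0.54, SE 0.031) and Rarb, below 1 CPM (-1.67, SE 0.31), fell. Nr6a1, an orphan receptor, fell as well (-0.38, SE 0.032).

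Fatty acid synthesis genes rose in 15 of 20 cases and fell in 2 (median 0.44). Srebf1, the transcription factor of the pathway, stood at 90.4 and 95.3 CPM and 82.9 and 86.1 in ESC at passages 12 and 14 and at 280.1 and 278 and 273 and 273 in NrESC, with no overlap (1.64, SE 0.029, adjusted p = 8.65e-19). The desaturase Scd1 stood at 206 to 217 CPM in the controls and 902 to 978 in the treated libraries (2.14, SE 0.028). Its paralog Scd2 stood at 1083 to 1127 and 3314 to 3574 CPM (1.64, SE 0.019). Mid1ip1, which activates acetyl-CoA carboxylase, had the highest fold change of the list (2.27, SE 0.041). That carboxylase, Acaca, rose by 1.02 (SE 0.027) and fatty acid synthase, Fasn, by 0.69 (SE 0.029). The desaturases Fads1 and Fads2 rose by 0.67 and 0.79, and Acly, which supplies cytosolic acetyl-CoA, by 0.31. Me1, the malic enzyme, fell (-0.21, SE 0.033), as did Mlxipl. Per length, Scd2 was the highest of these at 359 TPM in ESC and 1110.2 in NrESC, ahead of Scd1 at 78.2 and 342. The lists of LXR targets and of fatty acid synthesis share Srebf1, Scd1, Scd2, Fasn, Mid1ip1 and Mlxipl.

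Cholesterol synthesis and uptake genes, controlled by SREBP-2, rose in 23 of 25 cases and none fell (median 0.40). Their differences were narrow. Dhcr7, the last enzyme of the pathway, stood at 85.5 to 89.9 CPM in ESC and 139 to 145 in NrESC (0.69, SE 0.028, adjusted p = 4.68e-13). Lss, which closes the sterol rings, rose by 0.52 (SE 0.029), and Fdft1, which makes squalene, by 0.47 (SE 0.027). Srebf2, the transcription factor of the pathway, rose by 0.40. Sqle (0.051) and Hsd17b7 (-0.13) were not called.

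Fatty acid oxidation and lipid droplet genes did not move together: of 21 tested 5 rose and 9 fell (median -0.024). Lpin1, a phosphatidate phosphatase, rose by 0.64 (SE 0.037) and Pdk4, which slows pyruvate oxidation, by 0.82 (SE 0.095). The carnitine carrier Slc25a20 (-0.39, SE 0.036), the fatty acid binder Fabp3 (-0.50, SE 0.054) and the dehydrogenase Acadvl (-0.38) fell. Cpt1a, the common entry enzyme of oxidation, was not called (0.054, SE 0.026, adjusted p = 0.0923). Its muscle form Cpt1b, outside the list, stood at 2.902 to 3.62 CPM in ESC and 8.699 to 10.9 in NrESC (1.63, SE 0.092).

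Genes of the ATF4 pathway, which answers amino acid shortage and other stress, and of serine synthesis rose in 23 of 26 cases, 7 of them by 2-fold or more, and none fell (median 0.69). The factor itself, Atf4, stood at 289.5 to 326 CPM in ESC and 466 to 484 in NrESC (0.64, SE 0.025, adjusted p = 2.78e-13). Phgdh, the first enzyme of serine synthesis, went from 120.4 and 119.8 CPM at passage 12 and 152 and 147 at passage 14 in ESC to 237 and 237 and then 257 and 248 in NrESC. Its groups did not overlap, and the ESC libraries were higher at passage 14 than at passage 12 (0.87, SE 0.036). The mitochondrial enzyme Pck2 rose by 1.14 (SE 0.048) and the glutathione-degrading Chac1 by 1.21 (SE 0.091). The stress genes Ddit3, Trib3 and Atf3 rose by 1.04, 0.94 and 0.96. Slc7a11, the cystine importer, was low but rose from 0.775 ± 0.0824 to 2.79 ± 0.24 CPM (1.83, SE 0.16). Slc7a3, Stc2 and Cebpb were not called.

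The chaperones of the endoplasmic reticulum, targets of the other arms of that stress response, showed no common direction. Of 18 tested 5 rose and 5 fell (median 0.014), again near the shares over all genes. Herpud1 rose by 0.52 (SE 0.052) and Sdf2l1 by 0.37 (SE 0.045), whereas Dnajc3 fell (-0.42, SE 0.039). Hspa5, the main chaperone of the group, was not called (-0.013, SE 0.02, adjusted p = 0.59).

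**Figure D2:**
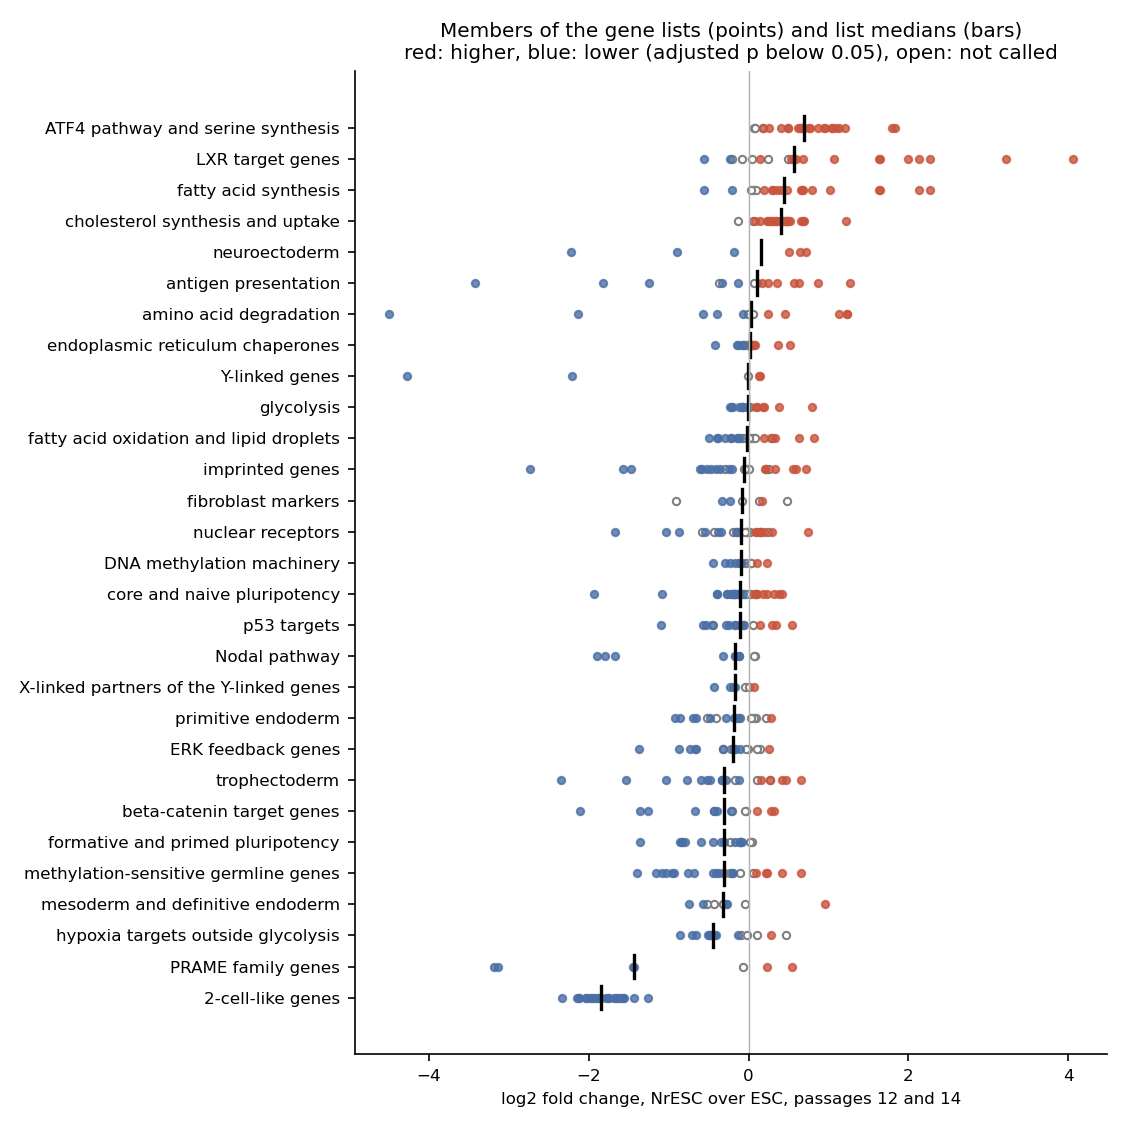
Log2 fold change of each tested member (points) of 29 gene lists at passages 12 and 14, NrESC over ESC, ordered by the list's median (black bars), with called members in red (higher) or blue (lower). The medians run from -1.85 for 2-cell-like genes to 0.69 for ATF4 and serine synthesis genes, against 0.0040 over all genes tested.

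Genes of the 2-cell-like state fell in 25 of 25 cases, each by 2-fold or more, with a median of -1.85. Of the list, 32 genes had an entry, and those not tested were under the expression filter. A low gene could pass that filter on ESC libraries alone, which favours falls. The 25 also include near-identical copies, so they are not 25 separate results. Zscan4c, which acts in telomere upkeep and marks such cells, stood at 27.5 and 26.1 CPM in the ESC libraries of passage 12 and 22.1 and 21.8 at passage 14. In NrESC it stood at 9.07 and 9.13 CPM and then at 5.44 and 5.52, below all controls (-1.75, SE 0.074, adjusted p = 1.01e-12). Zscan4d fell by a like amount (-1.75, SE 0.1), and the promoters of these genes are shown because the copies are nearly the same sequence.
Zscan4c: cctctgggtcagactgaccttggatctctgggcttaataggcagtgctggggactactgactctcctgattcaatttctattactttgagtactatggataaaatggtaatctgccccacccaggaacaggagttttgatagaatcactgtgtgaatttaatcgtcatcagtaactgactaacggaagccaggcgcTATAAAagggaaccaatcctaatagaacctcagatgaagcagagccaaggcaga
Zscan4d: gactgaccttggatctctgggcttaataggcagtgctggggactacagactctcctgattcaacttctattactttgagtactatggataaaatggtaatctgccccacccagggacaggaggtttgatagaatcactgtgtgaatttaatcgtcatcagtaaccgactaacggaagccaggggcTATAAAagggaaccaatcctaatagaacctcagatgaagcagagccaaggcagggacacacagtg
The stretches lie at chr7:11005495-11005744 on the plus strand and chr7:11166149-11166398 on the minus strand (RefSeq, GRCm38.p6), each 250 bases before the start, with the letters TATAAA in capitals. The copies matched at 232 of 239 aligned bases (97.1%). TATAAA lay on the gene's strand in 8.32% of all 32851 windows and in those of 7 of the 13 2-cell-like genes with a window. Reads of such copies were divided among them by the authors' software, so the values of single copies are uncertain.

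Other members of that state showed the same direction. Gm8300 stood at 9.83 to 16.1 CPM in ESC and 2.33 to 4.13 in NrESC (-2.03, SE 0.082) and Gm5662 at 12.7 to 18.8 and 3.37 to 5.27 CPM (-1.92, SE 0.076). The deubiquitinase copies Usp17la to Usp17le had log2 fold changes from -2.15 to -1.58, and Zfp352, a zinc finger gene of that stage, fell (-2.12, SE 0.27). Dux, which switches the state on, was under the expression filter at 0.118 to 0.232 CPM in ESC and 0.047 to 0.181 in NrESC. Summed over the list, levels ran at 152 to 205 CPM in ESC and 39.5 to 60.97 in NrESC. Dppa3, a maternal factor of the core and naive list, fell from 2.599 ± 0.242 to 0.688 ± 0.219 CPM (-1.93, SE 0.18), and Dppa2, an activator of Dux, from 149.6 ± 5.16 to 70.3 ± 2.58 (-1.09, SE 0.033).

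The PRAME family split by level of change. Pramel6 stood at 22.1 and 20.4 CPM in ESC at passage 12 and 16.8 and 17.3 at passage 14, against 2.21 and 2.08 and then 2.18 and 1.93 in NrESC (-3.19, SE 0.081, adjusted p = 5.01e-16). Pramel7, its close relative, which has been tied to low DNA methylation in naive cells, stood at 10.6 to 11.4 and 0.881 to 1.41 CPM (-3.14, SE 0.11). Both had no overlap between the arms, which was a condition for naming a gene among the largest changes. Pramef17 (-1.45, SE 0.16) and Pramef25 (-1.43, SE 0.24) fell too, whereas Pramef12 (0.24, SE 0.027) and Pramel1 (0.54, SE 0.13) rose. In all, 2 of 7 tested rose and 4 fell (median -1.43).

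Pluripotency factors moved little and in both directions: of 29 core and naive genes 9 rose and 15 fell (median -0.11). Nanog stood at 1504 to 1573 CPM in ESC and 1152 to 1183 in NrESC (-0.39, SE 0.02, adjusted p = 1.04e-11) and Sox2 at 367 to 412 and 325 to 346 (-0.22, SE 0.025), both with no overlap. Pou5f1 rose by 0.18 (SE 0.021), Klf4 by 0.32 (SE 0.03), Tfcp2l1 by 0.23 (SE 0.02) and Dppa5a by 0.38 (SE 0.019). Prdm14, which holds DNA methylation low in naive cells, fell (-0.40, SE 0.035). Only Dppa2 and Dppa3 passed 2-fold.

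Formative and primed genes, which cells switch on when they leave the naive state, fell in 13 of 17 cases and none rose (median -0.31). Zic2 stood at 23.2 to 29.3 CPM in ESC and 13.7 to 15.7 in NrESC (-0.86, SE 0.067, adjusted p = 4.39e-09). Dnmt3b, a DNA methyltransferase, fell (-0.44, SE 0.032). Foxd3 (-0.83, SE 0.11) and Sox3 (-0.84, SE 0.19) fell on average over both passages, and Sox3 was not called at passage 14 alone (-0.23, adjusted p = 0.352). Otx2 (0.04, SE 0.07, adjusted p = 0.656) and Pou3f1 (-0.23, SE 0.12, adjusted p = 0.117) were not called, and Fgf5 was under the filter at 0.043 and 0.0147 CPM.

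The Nodal pathway had 8 of 10 tested genes lower and none higher (median -0.17). Large falls were seen in known transcriptional targets. Lefty2, a secreted Nodal inhibitor, stood at 243 and 242 CPM at passage 12 and 225 and 224 at passage 14 in ESC and at 73.7 and 74.7 and 71.7 and 71.2 in NrESC (-1.68, SE 0.025, adjusted p = 7.64e-20). Lefty1, its paralog, went from 14.96 ± 0.567 to 3.98 ± 0.304 CPM (-1.900, SE 0.075). The ligand Nodal changed less (-0.12, SE 0.029), as did its co-receptor Tdgf1 (-0.17, SE 0.032). The receptors Acvr1b (0.076) and Acvr2b (0.064) were not called.

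Targets of ERK, which PD0325901 blocks upstream in both arms, were lower in 9 of 17 cases and higher in 1 (median -0.20). Myc went from 16.6 ± 2.48 to 9.09 ± 1.503 CPM (-0.87, SE 0.11) and Phlda1 from 8.599 ± 0.344 to 5.43 ± 0.899 (-0.67, SE 0.093). Etv5 fell by a narrow margin (-0.17, SE 0.021), the immediate early gene Ier2 rose (0.26, SE 0.054), and the phosphatase Dusp6 was not called (0.14, SE 0.059, adjusted p = 0.0553). Targets of beta-catenin, which CHIR99021 stabilises in both arms, were lower in 7 of 14 cases and higher in 3 (median -0.30). Tnfrsf19 went from 16.9 ± 0.528 to 7.08 ± 1.06 CPM (-1.26, SE 0.071) and the cell cycle gene Ccnd1 fell (-0.43, SE 0.037). Dkk1, a secreted WNT inhibitor, went from 0.972 ± 0.176 to 0.226 ± 0.0518 CPM (-2.11, SE 0.27), whereas Axin2, the usual reporter of the pathway, was not called (-0.032, SE 0.04, adjusted p = 0.535).

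Markers of other lineages were read list by list. In the trophectoderm list 5 of 20 rose and 11 fell (median -0.30). Gata3 went from 2.38 ± 0.239 to 0.459 ± 0.121 CPM (-2.35, SE 0.20), Gata2 from 12.8 ± 0.689 to 6.25 ± 0.506 (-1.03, SE 0.073) and Cdx2, the regulator of the lineage, from 1.55 ± 0.0843 to 0.532 ± 0.0297 (-1.53, SE 0.19). The epithelial genes Krt8 (0.66, SE 0.058) and Cldn4 (0.47, SE 0.033) rose, and Elf5 was at 0.0945 and 0.186 CPM. The list's summed level was 360.4 to 395 CPM in ESC and 402 to 409 in NrESC. Its total was thus higher in every treated library, although the list's median log2 fold change was -0.30.

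In the primitive endoderm list 1 of 17 rose and 9 fell (median -0.19). The basement membrane gene Col4a1 fell (-0.66, SE 0.046), as did the endocytic adaptor Dab2 (-0.86, SE 0.096) and the regulator Gata6, near 1 CPM (-0.70, SE 0.20). The laminin Lamb1 rose (0.28, SE 0.036). Gata4 and Sox17 were not called, and Foxa2, Afp and Ttr were below 0.1 CPM. The summed level was 1306 to 1348 CPM in ESC and 1204 to 1258 in NrESC.

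Mesoderm and definitive endoderm genes rose in 1 of 9 cases and fell in 4 (median -0.32). Eomes (-0.28, SE 0.047) and Kdr (-0.57, SE 0.12) fell. Tbx6, below 1 CPM, rose (0.96, SE 0.32, adjusted p = 0.0188), a call that was lost without either second library of passage 12 and at passage 14 alone. T, the classic mesoderm gene, was at 0.607 and 0.446 CPM and not called (-0.44, SE 0.25, adjusted p = 0.15). The neuroectoderm list had 3 of 6 higher and 3 lower (median 0.16). Nes went from 88.3 ± 2.97 to 47.2 ± 3.63 CPM (-0.90, SE 0.039), Pax6 from 0.701 ± 0.153 to 0.147 ± 0.0481 (-2.22, SE 0.33), and Sox1 from 8.65 ± 0.589 up to 12.2 ± 0.57 (0.50, SE 0.066). Summed levels were 177 to 184 CPM in ESC and 130.4 to 138 in NrESC for neuroectoderm and 107 to 114 CPM in ESC and 95.1 to 101 in NrESC for mesoderm and definitive endoderm.

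Fibroblast markers, a check for feeder-like or differentiated cells, had 1 of 7 tested higher and 2 lower (median -0.077). Of the 13 on the list, Col3a1, Lum, Dcn, Postn, S100a4 and Acta2 were below 0.1 CPM in every arm mean. Vim fell (-0.34, SE 0.024). Fbn1 fell too (-0.23, SE 0.063), a call lost at passage 12 alone (adjusted p = 0.0739) and with the libraries of each arm and passage summed (adjusted p = 0.0541). Pdgfrb overlapped between the arms (0.17, SE 0.063, adjusted p = 0.0294) and lost its call without 4 single libraries and at passage 14 alone. The summed level was 236 to 242 CPM in ESC and 195 to 204 in NrESC. The part of these marker levels in the other results was not tested.

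Germline genes that DNA methylation represses in other cells rose in 5 of 23 cases and fell in 13 (median -0.31). Fkbp6, of the piRNA pathway, went from 32.9 ± 1.58 to 15.99 ± 0.719 CPM (-1.04, SE 0.049), Tex15 from 33.97 ± 1.81 to 17.5 ± 0.986 (-0.96, SE 0.046) and the meiotic gene Hormad1 fell (-1.16, SE 0.069). The cohesin subunit Stag3 rose (0.65, SE 0.035), as did Ddx4 (0.23, SE 0.058), while Dazl fell (-0.68, SE 0.049). Among 12 genes of the DNA methylation machinery 2 rose and 7 fell, all by less than 2-fold (median -0.10). Dnmt3b, Tet3 (-0.29, SE 0.044) and the histone methyltransferase Setdb1 (-0.23, SE 0.032) fell, and Zfp57, which protects imprints, rose (0.23, SE 0.04). The maintenance genes Dnmt1 (-0.033, SE 0.023, adjusted p = 0.252) and Uhrf1 (0.03, SE 0.024, adjusted p = 0.315) were not called.

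Imprinted genes rose in 6 of 25 cases and fell in 11 (median -0.052). The largest change was in H19, a maternally expressed noncoding RNA, at 30.1 and 31.2 CPM in ESC at passage 12 and 35.3 and 35.5 at passage 14. In NrESC it was at 5.85 and 5.94 CPM and then 3.89 and 4.02, below all controls (-2.73, SE 0.10, adjusted p = 1.31e-13). Its neighbour Igf2, expressed from the other parental copy, also fell, from 5.82 ± 2.38 to 2.03 ± 0.226 CPM (-1.47, SE 0.16), and Dlk1 fell (-1.57, SE 0.17) while its neighbour Meg3 was not called (-0.034, SE 0.044, adjusted p = 0.541). Plagl1 fell (-0.47, SE 0.023) and Mest rose (0.59, SE 0.03). Igf2r (-0.0015), Peg3 (0.005) and Snrpn (-0.052) stayed uncalled.

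The Y chromosome gave a split within a single chromosome. Uba1y, a testis-type ubiquitin-activating enzyme, stood at 10.8 and 12.4 CPM in ESC at passage 12 and 16.7 and 16.9 at passage 14, against 2.56 and 3.23 and 3.16 and 3.08 in NrESC (-2.21, SE 0.097, adjusted p = 1.39e-12). Zfy1, a zinc finger gene, had 126 counts over the 4 ESC libraries and 9 over the 4 NrESC libraries, with 0 in 1 of them (-4.27, SE 0.40). The arms did not overlap in either gene. Ddx3y, an RNA helicase, was at 61.1 to 69.4 CPM in ESC and 67.7 to 75.2 in NrESC (0.13, SE 0.031), and the initiation factor gene Eif2s3y at 40.7 to 42.3 and 45.3 to 47.6 (0.15, SE 0.035). Both rose by small margins, Ddx3y with overlap between the arms, and both calls were lost with the libraries of each arm and passage summed (adjusted p = 0.0584 and 0.054). Uty was not called (-0.0049, SE 0.061, adjusted p = 0.952). Kdm5d had 7 and 2 counts over the arms, Usp9y 24 and 13, Sry 0 in all libraries and Zfy2 was at or near 0. Uba1y and Zfy1 resemble Uba1 and Zfy2 in sequence, so the division of shared reads may bear on their values, which was not tested. In all, 2 of 5 tested Y-linked genes rose and 2 fell (median -0.0049).

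**Figure D3:**
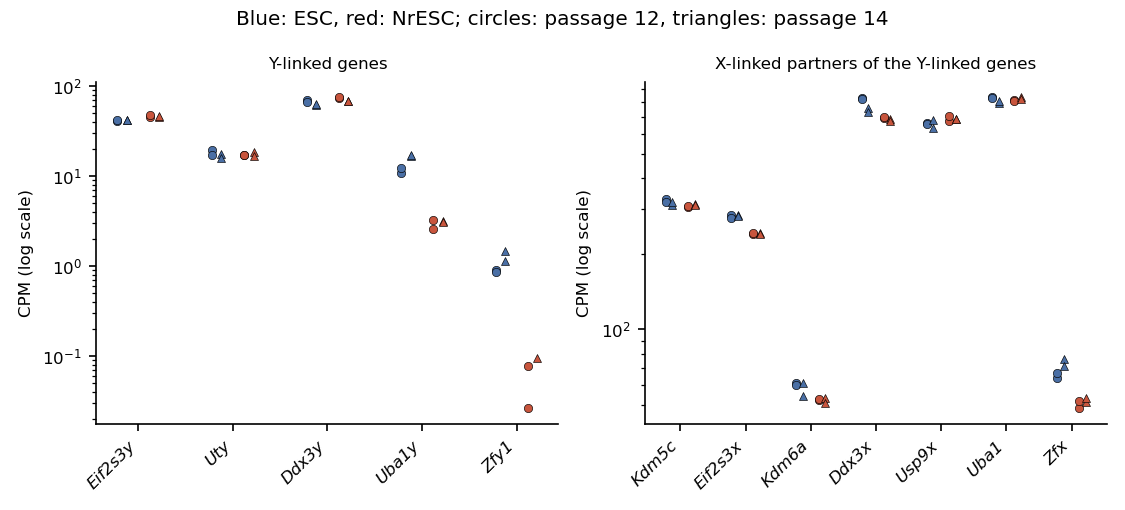
CPM (log axis) of the tested Y-linked genes (left) and of the X-linked partners of the list (right) in the 8 late libraries, with ESC in blue, NrESC in red, passage 12 as circles and passage 14 as triangles. Uba1y and Zfy1 are lower in NrESC, while Eif2s3y, Uty and Ddx3y lie within 15.9 to 75.2 CPM in both arms; 1 NrESC library with 0 counts of Zfy1 is not drawn.

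Of their X-linked partners 1 of 7 rose and 4 fell (median -0.17). Uba1, the partner of Uba1y, was not called (0.011, SE 0.022, adjusted p = 0.707), and Zfx, that of Zfy1, fell (-0.44, SE 0.037). Eif2s3x (-0.23, SE 0.022), Ddx3x (-0.19, SE 0.023) and Kdm6a (-0.17, SE 0.037) fell as well. Kdm5c was not called (-0.042), and the rise of Usp9x (0.069, SE 0.024, adjusted p = 0.0207) was lost without either of 2 single libraries. Of the tested genes 98.4% could be placed on a chromosome, and without the Y the medians ran from -0.060 on the X to 0.052 on chromosome 15. On the X, 20.7% of 512 genes were higher and 36.1% lower, with 36 (7.03%) lower by 2-fold or more. Over all tested genes 462 of 14497 were lower by 2-fold or more. The highest shares on other chromosomes, the Y aside, were 32.2% lower on chromosome 6 and 5.25% lower by 2-fold on chromosome 13.

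The largest falls included genes with no common role. Aass, the first enzyme of lysine breakdown, stood at 7.29 and 6.6002 CPM at passage 12 and 8.67 and 7.24 at passage 14 in ESC, against 0.448 and 0.274 and 0.285 and 0.305 in NrESC (-4.503, SE 0.16, adjusted p = 5.5e-14). It was the lowest log2 fold change among the named genes. Zfp951, a zinc finger gene, stood at 12.5 to 16.4 and 1.24 to 1.53 CPM (-3.34, SE 0.10). The neurofilament gene Nefm stood at 30.4 to 34.2 and 3.82 to 5.002 CPM (-2.81, SE 0.072). All 3 had no overlap between the arms, which was a condition for naming a gene among the largest changes.

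Amino acid breakdown as a list had no common direction, with 5 of 12 higher and 5 lower (median 0.027). Besides Aass, Ido2, a tryptophan dioxygenase, went from 3.73 ± 0.167 to 0.84 ± 0.0799 CPM (-2.13, SE 0.14), and Gldc of the glycine cleavage system fell (-0.40, SE 0.03). Fah, the last enzyme of tyrosine breakdown, rose from 13.9 ± 0.963 to 30.5 ± 1.13 CPM (1.13, SE 0.05), and Bcat2 rose (0.46, SE 0.04). Bhmt, which remethylates homocysteine, was outside the list and went from 86.3 and 86.98 and 68.9 and 73.99 CPM in ESC to 17.1 and 17.5 and 15.4 and 14.8 in NrESC (-2.28, SE 0.039). Aspa, which splits N-acetylaspartate, fell too (-2.34, SE 0.14).

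Antigen presentation genes moved in both directions. The class II gene H2-Eb1 stood at 6.31 and 7.01 CPM in ESC at passage 12 and 7.904 and 7.47 at passage 14, and at 0.87 and 0.313 and 0.803 and 0.751 in NrESC (-3.43, SE 0.16, adjusted p = 5.22e-12). H2-Ab1 (-1.25, SE 0.14) and Ciita, the switch factor of class II genes (-1.82, SE 0.21), fell, whereas the class II chaperone Cd74 rose (0.36, SE 0.085). The class I gene H2-K1 rose from 29.6 ± 4.18 to 53.6 ± 2.897 CPM (0.86, SE 0.047), Tapbp, which loads class I peptides, rose (0.63, SE 0.033), and H2-D1 and B2m rose by 0.25 and 0.17. The transporter Tap1 fell (-0.33, SE 0.098). In all, 7 of 15 rose and 5 fell (median 0.11). Ube2l6, an enzyme of ISG15 conjugation outside the list, fell (-2.18, SE 0.14).

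More genes are given by their fold changes. Among those that rose were Slfn9 of the Schlafen family (7.52 to 9.37 CPM in ESC and 26.6 to 30.3 in NrESC, 1.79, SE 0.065), the glucose transporter Slc2a4 (1.602, SE 0.19), the antiproliferative gene Btg3 (2.08, SE 0.23), the factor Mef2b (1.56, SE 0.15) and the calcitonin gene Calca (1.46, SE 0.11). The falls included the X-linked Xlr3c (17.5 to 19.9 CPM in ESC and 2.42 to 4.09 in NrESC, -2.52, SE 0.10), the muscle gene Smtnl1 (-2.48, SE 0.089) and the homeobox gene Hoxa9 (-2.19, SE 0.11). The libraries of the arms did not overlap in these genes, which was a condition of the rule that chose them.

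Glycolysis did not differ in 1 direction: 6 of 18 genes rose and 6 fell (median -0.01). Hk1 (0.38, SE 0.032) and the neuronal enolase Eno2 (0.80, SE 0.075) rose, and Ldha, which makes lactate, fell (-0.21, SE 0.018). Other targets of the hypoxia factors were lower in 12 of 17 cases and higher in 1 (median -0.44). The demethylase Kdm3a went from 375 ± 21.97 to 267 ± 3.05 CPM (-0.48, SE 0.029), the lactate exporter Slc16a3 from 187 ± 11.4 to 135 ± 2.96 (-0.47, SE 0.033), and Higd1a fell (-0.44, SE 0.033). Vegfa rose (0.28, SE 0.055). Targets of p53 rose in 4 of 19 cases and fell in 12 (median -0.11). The death gene Pmaip1 went from 42.3 ± 1.399 to 19.9 ± 3.75 CPM (-1.095, SE 0.067) and the kinase Plk2 fell (-0.57, SE 0.05), while the cell cycle inhibitor Cdkn1a (0.34, SE 0.025) and the death gene Bbc3 (0.54, SE 0.057) rose.

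Passages 12 and 14 were then compared with each other. Of the 7681 called genes 7617 had the same sign at both passages in the fit of all 32 libraries. In that fit 4402 were called at each of the 2 passages with that sign. The genes were chosen by the mean difference of these same late libraries, which favours a like sign. The counts are therefore no separate test of agreement. The arm difference was more positive at passage 14 than at passage 12 in 721 of 14497 genes (4.97%) and more negative in 524 (3.61%). These counts depended on single libraries. Leaving out 1 library gave 469 to 787 and 285 to 512 genes, and DESeq2 called 452 and 140 among 6627 genes with an adjusted p. The positive count was over 1.5 times lower without the second ESC library of passage 12 (469), the first of passage 14 (472), the second NrESC library of passage 12 (479) or either of passage 14 (478 each). The negative count was so without either ESC library of passage 12 (325 and 285), the first of passage 14 (294), the second NrESC library of passage 12 (344) or either of passage 14 (301 and 292).

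Formative genes and DNA methylation genes had more members on the positive side. In the formative list 6 of 17 differences were positive and none negative. Foxd3 stood at 20.1 and 20.4 CPM in ESC and 9.02 and 8.11 in NrESC at passage 12, and at 16.4 and 18.02 and 13.1 and 12.2 at passage 14, so ESC was lower and NrESC higher at passage 14 (0.81, SE 0.11, adjusted p = 1.47e-05). Sox3 in ESC went from 4.42 and 4.34 CPM at passage 12 to 2.13 and 2.91 at passage 14 (1.13, SE 0.26, adjusted p = 0.00404). Dnmt3b (0.15) and Zic2 (0.40) were positive as well. In the DNA methylation list 7 of 12 were positive and none negative, and in the core and naive list 10 of 29 positive and 1 negative. Myc had a positive difference too (0.76, SE 0.12, adjusted p = 0.000111).

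ATF4 and serine synthesis genes had the opposite sign, with 15 of 26 differences negative and none positive. For Pck2 the NrESC libraries were alike, at 145 and 154 CPM at passage 12 and 157 and 155 at passage 14. Its ESC libraries went from 58.9 and 62.3 up to 78.9 and 79.8 CPM (-0.33, SE 0.051, adjusted p = 6.11e-05). Hypoxia targets had 9 of 17 negative and 1 positive, and glycolysis genes 8 of 18 negative and none positive. H19 fell further (-0.78, SE 0.12, adjusted p = 3.8e-05), as did Zscan4c (-0.44, SE 0.11, adjusted p = 0.0112) and Pmaip1 (-0.45, SE 0.079, adjusted p = 0.000267). Abca1 had a small positive difference (0.21, SE 0.053, adjusted p = 0.0106) and Abcg1 none that passed (0.067, SE 0.10, adjusted p = 0.763).

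Further genes named for their difference between the passages were low. B3galt4, a glycosyltransferase, stood at 3.19 and 3.28 CPM in ESC and 1.56 and 1.61 in NrESC at passage 12, and at 1.66 and 2.36 and 2.23 and 2.58 at passage 14, so that the order of the arms did not hold (1.31, SE 0.27, adjusted p = 0.00147). Npcd ran the other way, from 2.77 and 4.56 and 8.94 and 8.07 CPM to 7.94 and 8.42 and 6.73 and 6.27 (-1.52, SE 0.19, adjusted p = 1.12e-06). Fstl3, which binds activin, went in ESC from 2.699 and 2.49 to 4.65 and 6.06 CPM and stood at 2.77 and 2.94 and 2.64 and 2.16 in NrESC (-1.29, SE 0.23, adjusted p = 0.000339). Mthfs (0.86, SE 0.25, adjusted p = 0.0256), Il4i1 (-1.38, SE 0.39, adjusted p = 0.0218), Cntd1 (-1.25, SE 0.22, adjusted p = 0.000297) and Mocos (-1.17, SE 0.28, adjusted p = 0.0065) completed the named set with Rps27. The calls for Mthfs and Il4i1 were each lost without any of 4 single libraries, and those for Mthfs and Mocos at equal depth. The value of Rps27 (3.07, SE 0.60, adjusted p = 0.000923) rested on 1 ESC library of passage 12, at 7.46 CPM against 0.701 in its pair, and without it the difference was 0.50 and not called (adjusted p = 0.592).

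**Figure D4:**
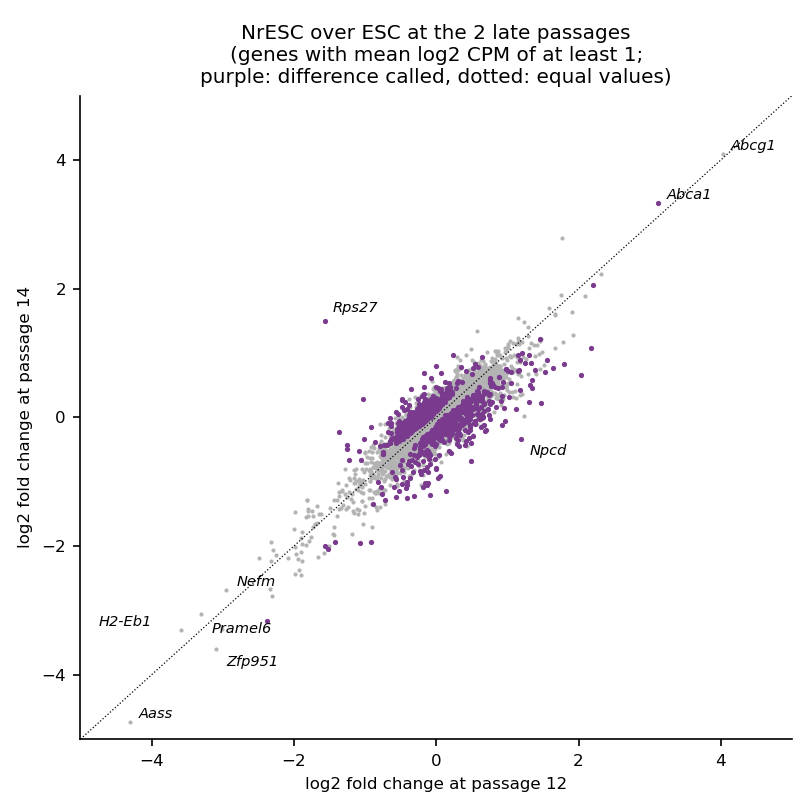
Log2 fold change of NrESC over ESC at passage 12 (x axis) against passage 14 (y axis) for genes whose mean log2 CPM was 1 or more, with genes whose difference between the passages was called in purple and equal values on the dotted line. Most points lie along the line, from Aass at -4.299 and -4.74 to Abcg1 at 4.02 and 4.09, while Rps27 and Npcd change sign.

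The late difference was also set against that of the first passage sampled. The labels mark the NrESC cells of passage 0 as treated and do not say for how long. The mean difference of passages 12 and 14 exceeded that of passage 0 in 1406 of 15036 genes (9.35%) and lay below it in 1746 (11.6%). By 2-fold or more these were 48 and 214 genes. Without the second NrESC library of passage 0 the lower count was 1163. This comparison and the next share the late libraries.

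The sterol exporters were high from the start. At passage 0 the log2 fold change of Abcg1 was 4.21 (SE 0.065) and that of Abca1 3.302 (SE 0.035), with no called difference from the late value (adjusted p = 0.334 and 0.259). In the list 6 of 20 were higher late and 7 lower. Mylip was lower late (-0.34, SE 0.099, adjusted p = 0.0122), while Scd1 (0.68, SE 0.03, adjusted p = 2.28e-21) and Mid1ip1 (0.88, SE 0.07, adjusted p = 4.35e-13) were higher. Cholesterol genes were higher late in 19 of 25 cases and none was lower, with a list median of 0.094 at passage 0, 0.42 at passage 12 and 0.38 at passage 14. In the ATF4 list 14 of 26 were higher late and 2 lower, and of glycolysis 15 of 18 were higher and none lower. The glycolysis medians were -0.18, 0.024 and -0.059 at passages 0, 12 and 14, against 0.60 at passage 10. The hypoxia medians were -0.61, -0.24 and -0.56, against 0.63 at passage 10.

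The genes named next were chosen for their difference from passage 0. Aass began with a log2 fold change of -0.081 (SE 0.13), reached -2.34 (SE 0.32) by passage 4 and -3.77 (SE 0.22) by passage 8, and ended at -4.74 (SE 0.22). The late value minus the first was -4.44 (SE 0.21, adjusted p = 3.95e-20). H2-Eb1 began at 0.11 (-3.55, SE 0.26, adjusted p = 6.93e-14 for the difference), Zfp951 at -0.24 (-3.12, SE 0.13, adjusted p = 7.51e-22), Nefm at 0.033 (-2.85, SE 0.09, adjusted p = 1.91e-26) and Xlr3c at -0.048 (-2.49, SE 0.10, adjusted p = 5.27e-22). Other large late falls were in part present at passage 0, as in Pramel6 (-1.19, SE 0.12), Pramel7 (-1.05, SE 0.16), Smtnl1 (-0.82, SE 0.13) and H19 (-0.64, SE 0.12), all called there. The 2-cell-like genes had a median log2 fold change of -0.86 at passage 0, against 0.014 over all genes. Of the 27 tested, 13 had a more negative arm difference late than at passage 0 and none a more positive one. Zscan4c averaged 5.82 CPM in ESC and 3.12 in NrESC at passage 0. It was higher in both arms at passages 12 and 14. The log2 fold changes of Zfy1 (-4.48, SE 0.58, adjusted p = 1.21e-07) and Uba1y (-2.43, SE 0.10, adjusted p = 7.51e-22) also lay below their passage 0 values. Those of p53 targets did so in 11 of 19 cases, with 1 above.

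Among the genes higher late, Slfn9 went from 0.30 at passage 0 to 1.64 at passage 14 (1.48, SE 0.11, adjusted p = 4.19e-14), and Calb2, a calcium binder, from -0.062 to 1.48 (1.42, SE 0.10, adjusted p = 4.95e-14). The kallikrein Klk1 (1.42, SE 0.22, adjusted p = 3.76e-06) was higher late. The call for Btg3 (1.69, SE 0.57, adjusted p = 0.0296) was lost without any of 5 single libraries, down to 0.91 without the first ESC library of passage 0 (adjusted p = 0.508).

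**Figure D5:**
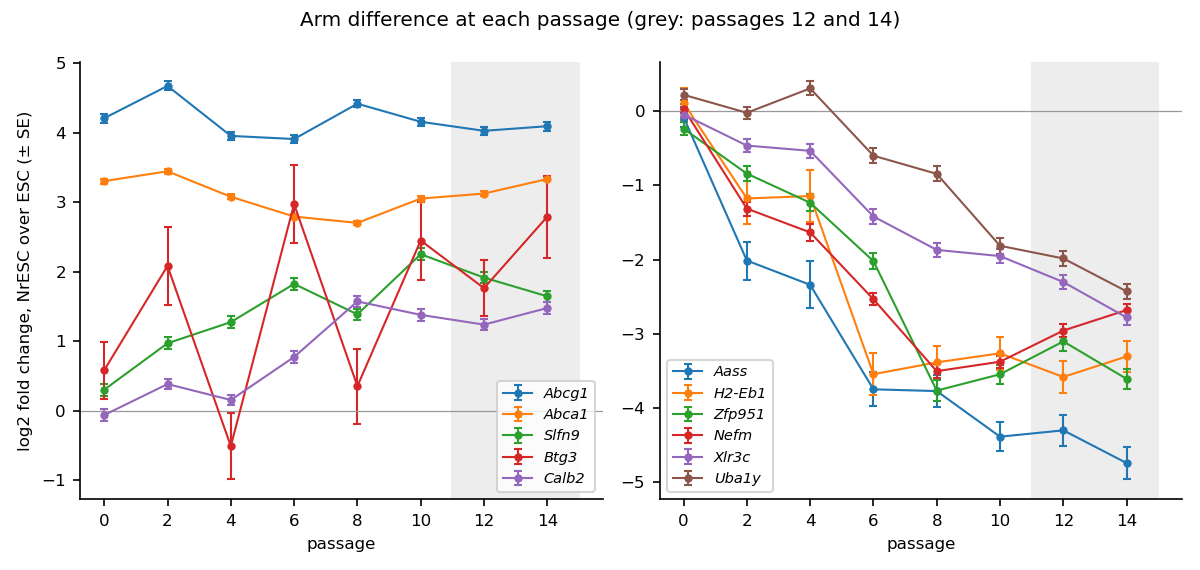
Log2 fold change of NrESC over ESC at each of the 8 passages (points, bars: SE), with passages 12 and 14 shaded. At those passages the 5 genes on the left were higher in NrESC than in ESC and the 6 on the right lower. Abcg1 and Abca1 had no called difference from passage 0. Abcg1 starts at 4.21 and Abca1 at 3.302, while Aass starts at -0.081 and reaches -4.74.

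Against passages 4 and 6 the late difference was more positive in 1519 of 15036 genes (10.1%) and more negative in 1579 (10.5%), with 32 and 49 of these by 2-fold or more. The arm difference of 2-cell-like genes was smaller late than at passages 4 and 6. Of 27 genes 16 had a positive change and none a negative one, with Tmem92 (1.00, SE 0.13, adjusted p = 9.36e-08), Usp17le (0.91, SE 0.18, adjusted p = 0.000274) and Zscan4c (0.83, SE 0.087, adjusted p = 1.59e-09) among them. Zscan4c in ESC averaged 42.7 and 35.1 CPM at passages 4 and 6 and 26.8 and 21.9 at passages 12 and 14. In NrESC it averaged 5.59 and 7.31 and then 9.10 and 5.48 CPM. The part of each arm in the change of the list was not tested. The list's median log2 fold change was -2.83 at passage 4 and -2.41 at passage 6, against -1.74 at passage 12 and -2.001 at passage 14. Cholesterol genes, which were higher in NrESC, had 14 of 25 differences negative and none positive. Their median log2 fold change was 0.53 and 0.62 at passages 4 and 6 and 0.42 and 0.38 at passages 12 and 14. Of 26 ATF4 and serine genes, also higher in NrESC, 14 differences were negative and 2 positive. Their medians were 0.96 and 0.87 and then 0.80 and 0.62, so the arm difference of both lists was smaller late too. Among p53 targets 9 of 19 were positive and none negative.

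Uba1y lay lower late. Its log2 fold changes at passages 4 and 6 were 0.31 and -0.60, and those of passages 12 and 14 were -1.98 and -2.43 (-2.06, SE 0.10, adjusted p = 3.07e-19). Zfp951 (-1.73, SE 0.13, adjusted p = 6.53e-13), Xlr3c (-1.56, SE 0.10, adjusted p = 6.3e-15), Aass (-1.48, SE 0.33, adjusted p = 0.000808) and the coactivator gene Cited4 (-1.48, SE 0.16, adjusted p = 2.75e-09) also lay lower late. The adhesion gene Nrcam (1.06, SE 0.18, adjusted p = 3.19e-05), Fam124a (1.04, SE 0.18, adjusted p = 2.47e-05) and Calb2 (0.89, SE 0.085, adjusted p = 1.86e-10) lay higher. With passage 10 in place of passages 4 and 6, the differences of Zfp951 and Calb2 turned sign, to 0.19 (adjusted p = 0.55) and -0.021 (adjusted p = 0.925), and those of Aass (-0.13, adjusted p = 0.833), Fam124a (0.35, adjusted p = 0.243) and Cited4 (-0.28, adjusted p = 0.34) were not called.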

How the data were processed

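RNA from E14 cells was sequenced in 32 libraries, of which 8 form the late comparison. The authors deposited expected counts per gene and, in the same layout, TPM values; per the file headers both come from RSEM. Per the submitters' processing notes STAR, Cufflinks 2.2.1, HTSeq 0.12.4, RSEM, DESeq2, edgeR and the mm9 build were used; annotation, strandedness and each tool's role are not given in the sources used here. Expected counts (0.837% fractional) were rounded. Libraries are grouped by the labels. Depth is 24989652 to 50463489 counts.

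Genes passing filterByExpr were tested with edgeR 4.0.16 (R 4.3.3), TMM factors, quasi-likelihood and Benjamini-Hochberg adjustment, calling at 0.05. The late fit used passage and arm (5 residual degrees of freedom), the interaction used 4 group means (4), and the differences from passage 0 and from passages 4 and 6 used all 32 libraries as 16 groups (16). Alternatives used DESeq2 1.42.0, limma 3.58.1 on log2(TPM + 1), other filters and scalings, left-out libraries and, added after seeing the data, equal depth and a fit without passage 8. Scripts were tested on simulated data.

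The members and the 29 lists (530 genes, 526 in the table, 467 tested) were chosen with earlier results of these data known. Named genes follow 4 parts: the 14 highest and 14 lowest late fold changes of called genes whose arms do not overlap and whose mean log2 CPM is 1 or more, the 3 smallest p of each list, the 5 highest and 5 lowest called differences of each difference test at that same mean level, and fixed genes; placeholder symbols were passed over. Further list members are named as examples, chosen after their values were seen, and some genes under the rule are not reported here. Promoter windows are from RefSeq (GRCm38.p6) and cover 389 of the list genes; the GGGTTANNNNCGGTCA form was searched after the exact repeat.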

Additional observations from a re-analysis of the deposited data

Results flagged for a closer look

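Genes are named here only where their mean log2 CPM was 1 or more, so low genes with larger differences are not listed. All results given here were picked out because a test of the difference between arm effects at different passages passed. Groups of 2 libraries are too small to test a single library as an outlier.

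Between passages 12 and 14 the arm effect was more positive at passage 14 in 721 genes and more negative in 524. Among genes at that level, the highest positive differences on the log2 scale included Rps27 (3.07), B3galt4 (1.31), Sox3 (1.13), Mthfs (0.86) and Foxd3 (0.81). The negative ones included Npcd (-1.52), Il4i1 (-1.38), Fstl3 (-1.29), Cntd1 (-1.25) and Mocos (-1.17). Without the second ESC library of passage 12 the value of Rps27 was 0.50. The calls for Mthfs and Mocos were lost at equal depth.

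Against passage 0 the late arm effect was higher in 1406 genes and lower in 1746. Btg3 (1.69), Slfn9 (1.48), Calb2 (1.42) and Klk1 (1.42) were among the positive differences. Without the first ESC library of passage 0 the value of Btg3 was 0.91. In DESeq2's Wald test Btg3 was not called (adjusted p = 0.239). Aass (-4.44), H2-Eb1 (-3.55), Zfp951 (-3.12), Nefm (-2.85) and Xlr3c (-2.49) were among the negative ones.

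Against passages 4 and 6 it was higher in 1519 genes and lower in 1579. Nrcam (1.06), Fam124a (1.04), Tmem92 (1.00), Usp17le (0.91) and Calb2 (0.89) were among those on the positive side, and Uba1y (-2.06), Zfp951 (-1.73), Xlr3c (-1.56), Aass (-1.48) and Cited4 (-1.48) on the negative side.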

How the results depend on the processing

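Leaving out 1 library in turn gave 3486 to 3705 higher and 3458 to 3633 lower genes for the late effect, 469 to 787 and 285 to 512 for the difference between passages 12 and 14, 1034 to 1462 and 1163 to 1578 against passage 0, and 1276 to 1527 and 1209 to 1507 against passages 4 and 6. Summing the libraries of each arm and passage gave 2541 and 2500 late calls, and DESeq2 gave 452 and 140 for the difference between passages. The count of late genes past 2-fold was 32 and 104 with limma on TPM, 85 and 192 at a mean CPM of at least 1, 260 and 406 at passage 12 alone and 111 and 495 at passage 14 alone. With passage 10 as the reference, 33 and 218 genes differed by 2-fold or more from the late effect. Of the 3098 genes called against passages 4 and 6, 1028 were then called in the same direction and 160 in the opposite one. The calls against earlier passages thus depended on the passages taken as reference. Same-numbered libraries had deviations correlated from -0.212 to 0.520 over the 8 passages, at 0.520 for passage 12 and 0.0097 for passage 14, so the numbers were not taken to pair the libraries. With a replicate block the calls were 3527 and 3495 (late), 651 and 465 (between passages), 1216 and 1563 (against passage 0) and 1331 and 1366 (against passages 4 and 6). Signs turned for Rps27 late with 1 library left out (-0.54 to 1.38, the latter without the second ESC library of passage 12) and at passage 14 alone (1.504), and at passage 14 alone for Pdgfrb (-0.0089) and Npcd (-0.33). They also turned at passage 12 alone for Fstl3 (0.15) and Mocos (0.49), and with passage 10 as reference for Zfp951 (0.19) and Calb2 (-0.021). The cause was not tested. Of list medians 531 kept within the spread of the libraries and 78 moved. Low counts limit the genes below 1 CPM, where the SE of Zfy1 was 0.40.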

Other observations

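These families were chosen after their values were seen, so their counts are descriptions. Over all genes tested 26.6% were higher and 26.4% lower. A low gene could pass the expression filter on ESC libraries alone, which favours falls. Among such low genes Xlr5c averaged 0.508 CPM in ESC and 0.0178 in NrESC, and Hoxb2 0.39 and 0.0655. Homeobox genes of the Hox clusters, which pattern the body axis, were mostly low, and of 34 tested 2 rose and 17 fell, with a median log2 fold change of -0.40 against 0.21 at passage 0. Hoxa9 (-2.19, SE 0.11), Hoxa10 (-2.13, SE 0.12) and Hoxa11 (-3.76, SE 0.33) fell, while Hoxc4 (0.35, SE 0.11) and Hoxc5 (0.36, SE 0.14) rose. All 9 tested genes of the X-linked Xlr family fell, with a median of -1.16. Their median at passages 0 to 14 was -0.048, 0.034, -0.14, -0.49, -0.54, -1.09, -1.04 and -1.30. The copies are near-identical, and Xlr3a (-0.75, SE 0.07) and Xlr3c (-2.52, SE 0.10) differed in size.

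The neurofilament genes Nefl (-1.72, SE 0.046) and Nefh (-0.93, SE 0.041) fell beside Nefm. Of the Schlafen genes, Slfn5 (0.44, SE 0.11) and Slfn10-ps (1.66, SE 0.19) rose beside Slfn9.

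Some near-identical copies were listed at 0 in one library and not in its pair. Entpd4b stood at 0 and 0 CPM in ESC at passage 12 and 9.63 and 0 at passage 14, and at 2.66 and 0 and 0 and 0 in NrESC. Its difference between passages was called all the same (adjusted p = 0.000414). Pisd-ps1 showed the same kind of values, at 0 and 0 and 5.08 and 0 CPM in ESC and 3.45 and 2.82 and 0 and 1.48 in NrESC.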
